A study of Mus musculus with 8 samples.

Results

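The 8 genes described here encode the core subunits of activator protein 1 (AP-1): Jun, Junb, Jund, Fos, Fosb, Fosl1, Fosl2 and Atf3. They were chosen by name from the array annotation, taking for each gene the transcript cluster that carries its symbol alone. Each gene had 1 such cluster, and the 8 stand among 19938 genes measured. Expression was measured in the gastrocnemius (a calf muscle of mixed fibre type) of 8 males aged 6 months, fed chow and fasted for 5 h, with 1 Affymetrix array per animal. All 8 mice carried the floxed Gcn5 gene (Gcn5 L2/L2), which encodes a lysine acetyltransferase and is called Kat2a in the array annotation. The 4 knockouts (Gcn5skm-/-, HSAcre Tg/0) also carried a Cre transgene driven, as its name HSAcre gives it, from the skeletal actin promoter of muscle fibres, and the 4 controls, called wild type here (Gcn5skm+/+, HSAcre 0/0), had no Cre. Effects of Cre itself and of the deletion therefore cannot be told apart, and cells other than fibres keep the gene.

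AP-1 is a dimer of basic leucine zipper proteins. Jun proteins pair with each other or with Fos proteins, while Fos proteins depend on a Jun partner to bind DNA stably, and Atf3 can pair with Jun proteins. Jun, Fos, Fosb, Junb and Atf3 are classic immediate-early genes, which cells transcribe within minutes of stretch, contraction, injury or stress without new protein synthesis, and in skeletal muscle they respond to exercise and to handling of the tissue.

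Kat2a measured 5.79 ± 0.0468 in knockout and 6.46 ± 0.0332 in wild-type muscle (log2, SD, n = 4 each), a difference of -0.66 (SE 0.0776, limma adjusted p = 0.0319). Every knockout lay below every wild type, at a mean of 0.631 of the wild-type level. It is not known here if this cluster is read from the deleted exons, so the value does not measure how much of the gene was deleted. The muscle actin gene Acta1 measured 12.67 and 12.63 in wild type and knockout, and the creatine kinase gene Ckm 12.65 in both. The largest value of the whole table was 13.2, so Acta1 and Ckm were near the top of the range in both groups. Of the 13 muscle fibre markers 8 were lower in knockout and 5 higher (median -0.018), where 54.7% of all genes were lower. Those with the smallest p were Myh2 (difference -0.49, limma adjusted p = 0.912) and Myh1 (-0.25, 0.917), with overlapping groups. Array medians lay between 4.61 and 4.72, and the mean correlation of an array with the others was lowest for wild type 2 (0.987).

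Upstream sequence is shown for 4 of the genes, because Jun, Fos and Atf3 had the widest differences and Junb, a close paralog of Jun, did not. Each sequence is the 250 bases before the annotated start, written along the gene's own strand, from RefSeq on GRCm38.p6. Capitals mark matches to the motifs searched in both orientations, which were the TPA response element TGACTCA, the cAMP response element TGACGTCA, the related Jun-type element TGACATCA, the upstream Jun element TTACCTCA, the CCAAT box CCAAT, the GC box GGGCGG and the CArG box of serum response factor. The TATA box TATAAA was searched on the gene's strand alone.
Jun (chr4:95052223-95052472, minus strand): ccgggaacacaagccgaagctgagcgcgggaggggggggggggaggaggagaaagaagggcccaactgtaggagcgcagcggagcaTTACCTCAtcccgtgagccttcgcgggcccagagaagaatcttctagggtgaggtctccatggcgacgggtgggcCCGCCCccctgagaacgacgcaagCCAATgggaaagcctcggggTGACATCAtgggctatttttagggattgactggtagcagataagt
Junb (chr8:84978749-84978998, minus strand): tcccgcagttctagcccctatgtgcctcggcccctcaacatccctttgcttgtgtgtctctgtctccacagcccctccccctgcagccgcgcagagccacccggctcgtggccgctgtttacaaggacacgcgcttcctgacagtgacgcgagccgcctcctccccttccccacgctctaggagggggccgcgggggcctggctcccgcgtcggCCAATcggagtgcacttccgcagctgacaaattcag
Fos (chr12:85473640-85473889, plus strand): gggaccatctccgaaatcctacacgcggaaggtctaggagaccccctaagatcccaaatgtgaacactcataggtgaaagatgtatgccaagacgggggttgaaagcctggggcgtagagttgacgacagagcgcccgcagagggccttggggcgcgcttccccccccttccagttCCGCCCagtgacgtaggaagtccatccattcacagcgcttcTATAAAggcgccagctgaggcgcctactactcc
Atf3 (chr1:191183334-191183583, minus strand): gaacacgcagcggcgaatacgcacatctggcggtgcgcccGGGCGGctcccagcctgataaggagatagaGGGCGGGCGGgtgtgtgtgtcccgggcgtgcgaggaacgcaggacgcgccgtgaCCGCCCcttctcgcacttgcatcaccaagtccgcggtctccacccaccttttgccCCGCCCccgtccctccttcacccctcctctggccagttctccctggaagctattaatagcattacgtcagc

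As background, the Jun promoter is known for elements of this kind through which Jun-containing dimers act on their own gene. In the Jun window TGACATCA lay 45 to 38 bases and TTACCTCA 164 to 157 bases before the start. These letters were found in 2.93% and 0.728% of the 32851 upstream windows in the RefSeq table. Among the 7 AP-1 genes with a listed window (all but Fosl1) they were found in the Jun window alone. TGACTCA and TGACGTCA were in 0 of the 7, against 4.46% and 1.55% of all windows, and the CArG box was in 0 of the 7, against 1.47%. The CCAAT box was in 2 of the 7 (Jun and Junb) and in 33.9% of all windows, the GC box in 5 of the 7 and in 32.7%, and TATAAA in 1 of the 7 (Fos, 33 to 28 bases before the start) and in 7.59%. G and C made up 47.6% of the Jund window and 58.4% (Fos) to 68.8% (Fosb) of the others, against a median of 52.4% over all windows. The part of base composition in the GC box count was not tested. A match describes the exact letters only, so a count of 0 does not mean that variant forms of an element are absent. Elements farther upstream lie outside these windows.

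Knockout was compared with wild type to ask how the transcripts of each AP-1 subunit stand in muscle of fasted mice with Gcn5 targeted in fibres. The subunit transcripts did not move as a block. Jun was lower in all knockouts, Fos was lower by a smaller amount, Atf3 was lower on average with overlapping groups, and Junb, Jund, Fosb, Fosl1 and Fosl2 had intervals that span 0. By limma with Benjamini-Hochberg adjustment over all 19938 genes, 0 of the 8 genes passed 0.05, at which 0.015% of all genes were called. At an adjusted p under 0.10 the count was 1 of 8 (Jun), against 0.0802% of all genes. At an unadjusted p under 0.05, 3 of 8 were lower in knockout (Jun, Fos and Atf3) and 0 higher, where 3.39% of all genes were lower and 2.34% higher. Atf3 left this count, so that it was 2 of 8, without wild type 3 (limma unadjusted p = 0.0984), wild type 4 (0.0645) or knockout 1 (0.103), and with all deposited clusters in the fit (0.0572). Without knockout 3 Jund joined it (0.0332), for 4 of 8. The difference was below 0 for 6 of 8 genes and for 54.7% of all genes, and the median difference was -0.14 over the 8 against -0.014 over all genes. That median was -0.24 without knockout 3 and -0.058 without knockout 2. The genes were chosen with earlier results of these data known, so these counts describe the family and test nothing about it.

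**Figure D1:**
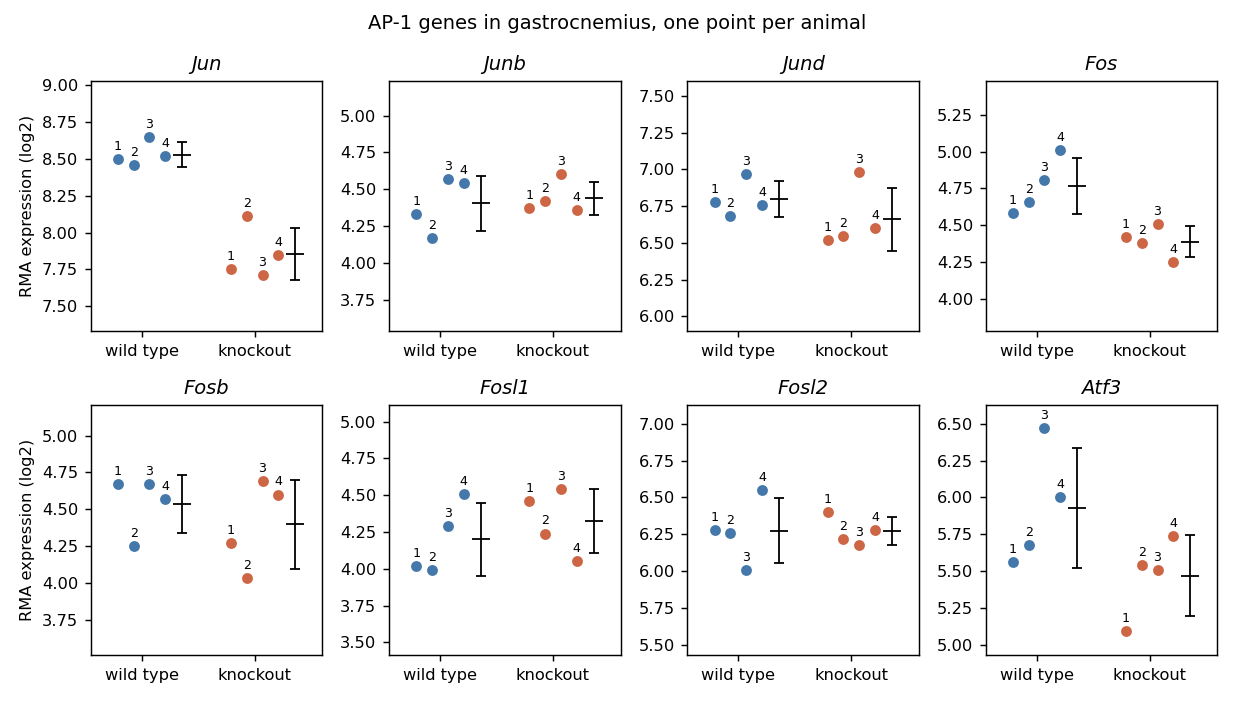
RMA log2 expression of the 8 AP-1 genes, 1 point per animal numbered by replicate, with black bars for the mean and SD of each group (n = 4); every panel spans the same number of log2 units. Jun and Fos are the panels in which the 4 knockouts lie below the 4 wild types.

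Among the Jun proteins, Jun is the subunit that gives AP-1 its strongest transactivation. Jun measured 8.50, 8.46, 8.65 and 8.52 in wild types 1 to 4 and 7.75, 8.11, 7.71 and 7.85 in knockouts 1 to 4. The groups did not overlap. The gap between the lowest wild type (8.46) and the highest knockout (8.11) was wider than the range of the wild types (0.191). It was narrower than the range of the knockouts (0.398). The difference was -0.68 (SE 0.10, 95% interval -0.90 to -0.45, limma adjusted p = 0.0568). On the linear scale the knockout level was 0.626 of wild type, with an interval of 0.537 to 0.730. Jun ranked 5 of 19938 genes by p. The exact two-sided permutation test gave p = 0.0286, the smallest that 4 against 4 animals allow. Any gene whose groups do not overlap gets this value, as Fos did, so it restates the separation and is not further evidence. Over all genes the groups did not overlap for 2.14% with the knockouts lower and 1.48% with the knockouts higher. Its adjusted p was under 0.05 in 3 of the 18 alternative analyses, which left out dim genes or fitted the variance against intensity, and its difference lay between -0.76 and -0.62 in all 18.

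Junb and Jund encode the other Jun-family subunits, which in many settings restrain Jun-driven transcription. Junb measured 4.33, 4.17, 4.57 and 4.54 in wild types 1 to 4 and 4.37, 4.42, 4.60 and 4.36 in knockouts 1 to 4. Its groups overlapped almost completely, with a difference of 0.035 (95% interval -0.20 to 0.27, limma adjusted p = 0.977). The sign was below 0 without wild type 2 (-0.041) or without knockout 3 (-0.019). Jund, the most constitutively expressed Jun gene in many tissues, measured 6.78, 6.68, 6.97 and 6.76 in wild types 1 to 4 and 6.52, 6.55, 6.98 and 6.60 in knockouts 1 to 4. Knockouts 1, 2 and 4 lay below every wild type, while knockout 3 was the highest of the 8 animals. The Jund difference was -0.14 (95% interval -0.39 to 0.11, limma adjusted p = 0.907), and it was -0.24 without knockout 3, -0.079 without wild type 3 and -0.089 without knockout 1.

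Among the Fos proteins, Fos is the prototype of rapid, transient induction. Fos measured 4.58, 4.66, 4.81 and 5.01 in wild types 1 to 4 and 4.42, 4.38, 4.51 and 4.25 in knockouts 1 to 4. The groups did not overlap, but the lowest wild type (4.58) and the highest knockout (4.51) were close. The difference was -0.38 (SE 0.11, 95% interval -0.61 to -0.14), or 0.770 of the wild-type level, with limma adjusted p = 0.655. Jun and Fos were the 2 of 8 AP-1 genes whose groups did not overlap with the knockouts lower, and 0 were separated with the knockouts higher. Over all genes the groups did not overlap for 2.14% with the knockouts lower and for 1.48% with the knockouts higher.

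Fosb, whose product and its truncated splice form accumulate with repeated stimulation, measured 4.67, 4.25, 4.67 and 4.57 in wild types 1 to 4 and 4.27, 4.03, 4.69 and 4.60 in knockouts 1 to 4. Both groups spread widely: wild type 2 and knockouts 1 and 2 were low and the other 5 animals were close together. The Fosb difference was -0.14 (95% interval -0.46 to 0.18, limma adjusted p = 0.926), and -0.017 without knockout 2. It was -0.24 without wild type 2 or without knockout 3.

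Fosl1 and Fosl2 encode Fra-1 and Fra-2, Fos proteins without the C-terminal transactivation domain of Fos. Fosl1 measured 4.02, 3.99, 4.29 and 4.51 in wild types 1 to 4 and 4.46, 4.24, 4.54 and 4.05 in knockouts 1 to 4, with overlapping groups. Its difference was 0.13 (95% interval -0.17 to 0.42, limma adjusted p = 0.930), which was 0.23 without wild type 4, 0.22 without knockout 4, 0.054 without wild type 2 or knockout 3, 0.065 without wild type 1 and 0.079 without knockout 1. Fosl2 measured 6.28, 6.26, 6.01 and 6.55 in wild types 1 to 4 and 6.40, 6.22, 6.18 and 6.28 in knockouts 1 to 4. The 4 Fosl2 knockout values lay inside the range of the wild types. The Fosl2 difference was -0.00424 (95% interval -0.25 to 0.24, limma adjusted p = 0.996). Changes of up to about 0.24 in either direction thus lay inside the interval.

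Atf3, which encodes a stress-induced partner of Jun proteins that often acts as a repressor, had the widest range of the 8 genes over the animals. Atf3 measured 5.56, 5.68, 6.47 and 6.00 in wild types 1 to 4 and 5.09, 5.54, 5.51 and 5.74 in knockouts 1 to 4. Knockouts 1, 2 and 3 lay below every wild type, but knockout 4 (5.74) was above wild types 1 and 2. The difference was -0.46 (SE 0.19, 95% interval -0.87 to -0.052, limma adjusted p = 0.861). Without wild type 3, the highest animal, it was -0.28, and the unadjusted p, 0.0300 with all animals, was then over 0.05, as it was without wild type 4 (difference -0.43) or knockout 1 (-0.33). The SD was 0.406 in wild type and 0.274 in knockout, against 0.0819 and 0.178 for Jun.

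**Figure D2:**
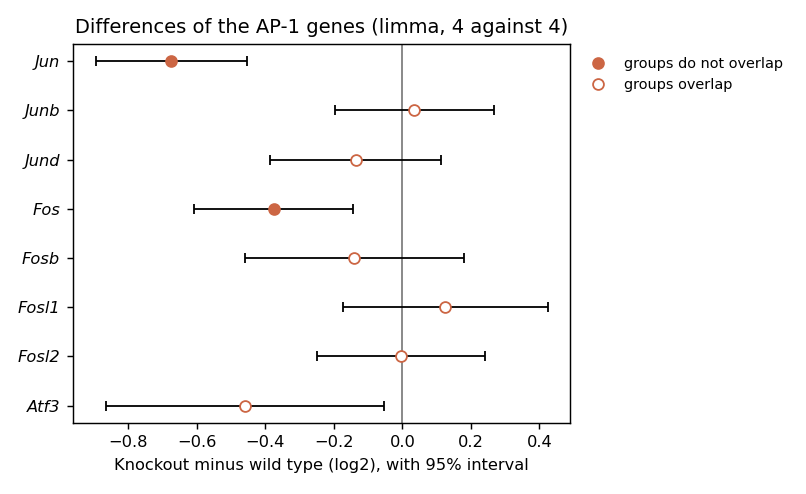
Knockout minus wild type in log2 units for each AP-1 gene, with the limma 95% interval from 4 against 4 animals; filled points mark genes whose groups do not overlap. With all 8 animals the intervals of Jun, Fos and Atf3 lie below 0 and those of the other 5 genes span it; that of Atf3 spans 0 without wild type 3, wild type 4 or knockout 1.

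The genes did not share one profile across animals. Among the wild types, animal 2 was the lowest for 5 of the 8 genes (Jun, Junb, Jund, Fosb and Fosl1), animal 3 was the highest for Jun, Junb, Jund and Atf3, and animal 4 was the highest for Fos, Fosl1 and Fosl2. Among the knockouts, animal 3 was the highest for 5 genes (Junb, Jund, Fos, Fosb and Fosl1) and the lowest for Jun and Fosl2. Knockout 2 had the highest Jun value and the lowest Fosb value of its group. In knockout 3, Jun thus stood at -0.48 relative to its mean over the 8 animals, where Junb, Jund, Fosb and Fosl1 stood above theirs by 0.18, 0.25, 0.22 and 0.28.

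**Figure D3:**
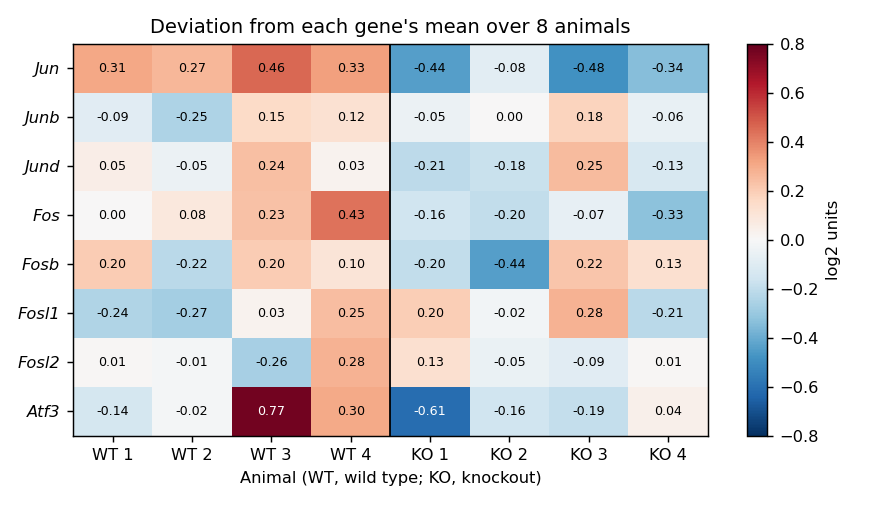
Deviation of each AP-1 gene from its own mean over the 8 animals, in log2 units, with wild types left and knockouts right of the line. The Jun row is positive in the 4 wild types and negative in the 4 knockouts, while knockout 3 is positive for Junb, Jund, Fosb and Fosl1.

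The balance of Jun against its partners and paralogs was read as the log2 ratio of the 2 transcript clusters within each animal. Only its change between groups can be interpreted, since clusters differ in probe response. The ratio of Jun to Junb was lower in knockout by 0.71 and that of Jun to Jund by 0.54, and neither overlapped between groups. The ratios to Fosl1 and Fosl2 were lower by 0.80 and 0.67, also without overlap. Against Fosb the change was -0.54, against Fos -0.30 and against Atf3 -0.22, and these 3 ratios overlapped between groups. These 7 ratios share the Jun values and are given as a description, with no test. Each ratio includes the Jun change of -0.68 and is not separate evidence. The ratios to Fos and Atf3 changed least, since both genes were also lower in knockout. Junb, Fos, Fosb and Fosl1 were dim (percentiles 35.0 to 41.5 of all genes by mean level), where RMA compresses differences. The part of this compression in their ratios was not tested.

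By the distance between mean-centred log2 profiles over the 8 animals (root mean square), the genes most like Jun were Kat2a (0.115), Ripor2 (0.124) and Tppp3 (0.129), where Jun itself varied by 0.358 around its mean. Those nearest to Fos were Tuba1a (0.0513), Arhgap1 (0.0543) and Midn (0.0556), where Fos varied by 0.231. Atf3 was less closely matched, with Fasn at 0.107, Srsy at 0.170 and Gpc3 at 0.196 for a variation of 0.378. Fosb was nearest to Sprr2e (0.0737), Col28a1 and Gsg1, Fosl1 to Slc24a4 (0.0806), Slc14a1 and Gata4, and Fosl2 to Olfr1251 (0.0364), Unc119 and Marchf8. For Junb and Jund the range from the lowest to the highest animal was under 0.5 (0.426 and 0.460), so they were not matched. The distances are a description over 8 animals. Profiles were centred over both groups together, so a similar group difference alone brings genes close. Jun and Kat2a differed between groups by -0.68 and -0.66. Jun was highest in wild type 3 and lowest in knockout 3, and Kat2a was highest in wild type 1 and lowest in knockout 4.

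Genes that act with or on AP-1 are given next from lists that carry none of the AP-1 genes above. Of the 19 measured further bZIP genes, which encode possible partners or competitors such as Batf, Maf and CREB family proteins, 0 passed over all genes and 0 had an unadjusted p under 0.05 (limma). Differences in this list ran from -0.19 to 0.19 with a median of -0.037. Creb5 stood at 5.97 in wild-type and 5.82 in knockout muscle, a difference of -0.15 (limma adjusted p = 0.876), the small Maf protein gene Maff differed by -0.19 (adjusted p = 0.877), and Jdp2, which encodes a repressor that pairs with Jun, by 0.0071. Leaving out 1 animal moved the list's median between -0.074 (without knockout 4) and -0.020 (without wild type 2).

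Jun protein is phosphorylated by c-Jun N-terminal kinases, and Fos transcription is driven through ERK and p38 kinases. Of the 18 measured genes of these cascades 7 were lower and 11 higher, where 54.7% of all genes were lower. Their median was 0.015, and 0 passed over all genes or at an unadjusted p under 0.05 (limma). The median was 0.031 without knockout 2 and -0.0023 without wild type 4, and it kept its sign in 6 of 8 such fits. Mapk8, which encodes the kinase JNK1, stood at 7.49 in wild-type and 7.42 in knockout muscle (difference -0.068). Mapk10, the gene of JNK3, differed by 0.18 and Map2k6, a kinase of p38, by 0.14 (limma adjusted p = 0.876 and 0.880). The transcripts of these kinases say nothing of their phosphorylation, which was not measured.

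Factors that bind or co-regulate the Fos and Jun promoters were lower in 13 of 20 cases, against 54.7% of all genes. Their median was -0.078, with 0 past either threshold (limma). The median lay between -0.10 without wild type 3 and -0.030 without knockout 3. Srf, which encodes serum response factor, stood at 8.12 in wild-type and 8.06 in knockout muscle (difference -0.062, limma adjusted p = 0.939). Its partner gene Elk4 differed by -0.19, and Nfya, whose product binds CCAAT boxes, by 0.18 (limma adjusted p = 0.869 and 0.871).

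Genes for turnover and control of Jun and Fos were lower in 13 of 17 cases (median -0.038), against 54.7% of all genes, with 0 passing over all genes (limma). At an unadjusted p under 0.05, 1 of 17 was lower (limma), where 3.39% of all genes were. That gene was Dusp1, which encodes a phosphatase that switches off JNK and p38 and is itself an immediate-early gene. Dusp1 stood at 9.06 in wild-type and 8.67 in knockout muscle (difference -0.39, limma adjusted p = 0.859), and its groups overlapped. Trim7, which encodes a ubiquitin ligase of a Jun co-activator, differed by 0.24 (limma adjusted p = 0.869). The list's median was 0.00385 without wild type 2.

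Textbook targets of AP-1 in matrix remodelling, growth and stress were higher in 17 of 27 cases and lower in 10, where 54.7% of all genes were lower. Their median was 0.027, with 0 called over all genes (limma). The median was -0.012 without knockout 3 and 0.070 without knockout 1. Fn1, the fibronectin gene, was the 1 member with an unadjusted p under 0.05, at 8.64 in wild-type and 8.23 in knockout muscle (difference -0.40, limma adjusted p = 0.859). Over all genes 3.39% were lower at that unadjusted threshold. Hmox1, the haem oxygenase gene, measured 5.63 and 5.87 (difference 0.24, limma adjusted p = 0.862). Its groups did not overlap, as for 1.48% of all genes with the knockouts higher. Over the 742 measured genes with TGACTCA in the upstream window, 54.2% were lower in knockout with a median of -0.012, against 54.8% and -0.014 over the 15614 measured genes with a listed window. For TGACGTCA 59.3% of 364 genes were lower (median -0.024), and for TGACATCA 50.6% of 399 (median -0.0028). These sets were defined after the expression values were seen.

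**Figure D4:**
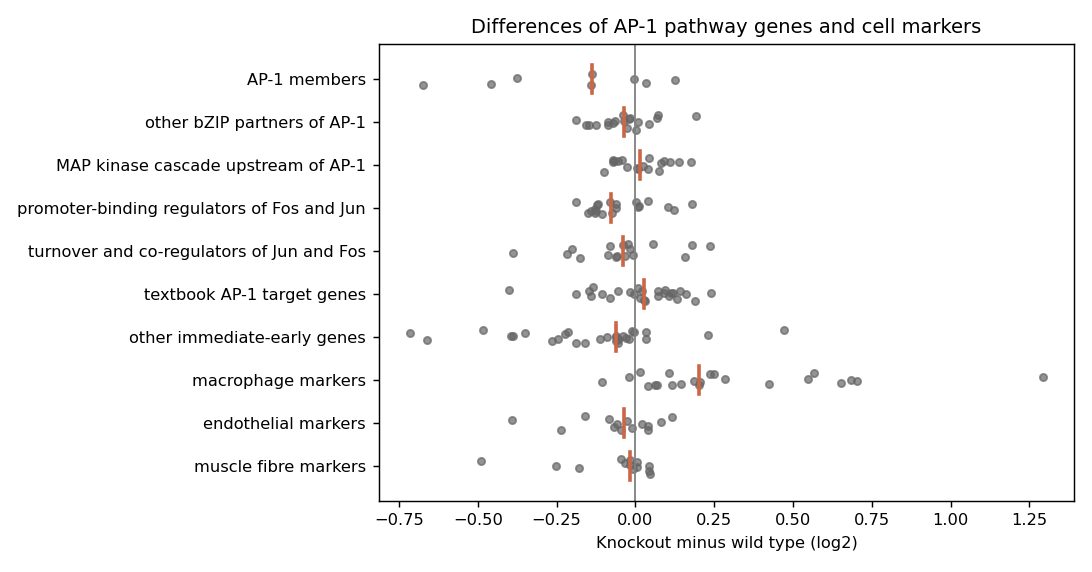
Knockout minus wild type in log2 units for each measured gene of the AP-1 family, 6 related lists and 3 lists of cell markers, 1 point per gene with the list's median as a bar. Jun at -0.68 lies at the left edge of the family, and the kinase and target lists centre near 0, at 0.015 and 0.027.

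Other immediate-early genes were lower in 25 of 29 cases, against 54.7% of all genes, with a median of -0.063 and 0 called over all genes (limma). At an unadjusted p under 0.05, 6 were lower and 1 was higher, where 3.39% and 2.34% of all genes were. Differences ran from -0.71 to 0.47, so the list reached as far below 0 as Jun. The lowest, named after its value was seen, was Nr4a3, also an orphan nuclear receptor gene, at 6.22 in wild-type and 5.51 in knockout muscle (SE 0.279, limma adjusted p = 0.859), with overlapping groups. Nr4a2, which encodes a receptor of the same family, stood at 5.64 in wild-type and 5.25 in knockout muscle (difference -0.39, limma adjusted p = 0.733), and Myc 5.32 and 5.79 (difference 0.47, limma adjusted p = 0.802). The groups of Nr4a2 and of Myc overlapped. The median was -0.16 without wild type 2, the array least like the others.

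AP-1 genes are expressed in many of the cell types of a muscle sample, and in bulk tissue fewer cells of a type and less RNA per cell cannot be told apart. Macrophage markers were higher in 20 of 22 cases, where 54.7% of all genes were lower. Their median was 0.20 and the largest difference 1.29, and 0 passed over all genes (limma). At an unadjusted p under 0.05, 9 of 22 were higher, against 2.34% of all genes, and for 4 of 22 every knockout lay above every wild type, against 1.48%. Their mean was 5.30 to 5.44 in wild type and 5.46 to 5.96 in knockout, with the highest value in knockout 4. The median was 0.16 without knockout 4 and 0.24 without wild type 2. Endothelial markers had means of 7.33 to 7.68 and 7.24 to 7.69, fibro-adipogenic progenitor markers 7.54 to 7.71 and 7.42 to 7.70, and smooth muscle and pericyte markers 7.43 to 7.83 and 7.52 to 7.65, each given for wild type and then knockout. Satellite cell markers had means of 5.64 to 5.72 in wild type and 5.64 to 5.71 in knockout, and lymphocyte and neutrophil markers 3.32 to 3.53 and 3.35 to 3.43. Muscle fibre markers had means of 11.88 to 12.00 and 11.69 to 12.01. Apart from the macrophage list, these ranges overlapped between groups, and the part of any cell type in the AP-1 values was not tested.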

How the data were processed

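Each sample's values are RMA estimates on the log2 scale, in 1 table that the authors deposited; the submitters' processing notes name RMA and Affymetrix Expression Console without settings, and a genome build was not given in the sources used here. RMA corrects background, quantile-normalizes and summarises probes, which compresses differences of dim transcripts. Mean levels of Junb, Fos, Fosb and Fosl1 lay at percentiles 35.0 to 41.5 of all genes. Of 35556 transcript clusters, 21789 carried 1 gene symbol; taking the highest-mean cluster per gene gave 19938 genes, dim ones included.

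Knockout and wild type (4 arrays each, 1 per animal) were compared with limma 3.58.1 (lmFit, eBayes; R 4.3.3), adjusted by Benjamini-Hochberg over all genes (threshold 0.05). Differences are knockout minus wild type. The steps were tested on simulated data. Named genes were the 8 AP-1 genes, Kat2a, per related list any gene past the threshold or else the 2 smallest p values, plus Mapk8, Srf and Jdp2, and 3 profile matches for members varying by at least 0.5. Acta1 and Ckm were added as tissue checks. Creb1, Srf, Dusp1, Zfp36 and Maff stand in more than 1 list. Members and lists were chosen with earlier results of these data known. Promoters came from RefSeq (GRCm38.p6). Alternatives were 3 further normalizations, 2 filters on dim genes, the mean over clusters, all clusters, array weights, a robust prior with intensity trend, a replicate block and leaving out each array. Figures used matplotlib 3.10.9.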

Additional observations from a re-analysis of the deposited data

How the results depend on the processing

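Over 18 alternatives Jun, Fos, Atf3, Jund, Fosb and Fosl1 kept their direction wherever they were measured; leaving out the dimmest 50% of genes removes Junb, Fos, Fosb and Fosl1. Jun stayed at -0.68 and passed, as 1 of 8 AP-1 genes, with the dimmest 25% (limma adjusted p = 0.0475) or 50% (0.0389) of genes left out and with an intensity trend and robust prior (0.0282), where 11, 13 and 17 genes were called in all, against 3. Fewer genes tested or smaller standard errors accompany these calls. With all deposited clusters 0 genes were called (Jun adjusted p = 0.281). Leaving out 1 array gave 0 to 5 calls over all genes, 0 AP-1 calls and a Jun difference of -0.76 to -0.63 (limma adjusted p from 0.0793 to 0.262). Re-normalization by quantiles or cyclic loess gave Jun -0.62 and -0.63 (adjusted p = 0.139 and 0.134).

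Fosl2 was above 0 after quantile (0.011) or cyclic loess (0.00837) normalization, with array weights (0.025), and without wild type 4 (0.088), knockout 2 (0.013) or knockout 3 (0.024), over a range of -0.091 to 0.088 when 1 array was left out. Junb was below 0 without wild type 2 (-0.041) or knockout 3 (-0.019), over a range of -0.041 to 0.091. The cause was not tested. Of 251 recomputed list medians 11 moved by more than 1 SD of the list's mean between replicates. This SD was 0.0147 for the further bZIP genes and 0.18 for the endothelial markers, so the count does not show that medians were stable. The endothelial median ran from -0.13 without knockout 2 to 0.050 without knockout 1 and was not counted as moved. With the dimmest 50% left out the median of the AP-1 genes that remained was -0.30.

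It was not settled if replicate numbers pair the animals. Correlations of same-numbered deviations were 0.094, 0.065, 0.22 and -0.10. Of 8 arrays, 4 correlated best with their own number, each among 4 candidates. With the replicate block 0 genes were called over all genes and 0 of the AP-1 genes, and Jun was -0.68 (limma adjusted p = 0.173). The number of arrays, 4 per group with a median SE of 0.105, limits all differences, and no signal-over-background measure was used.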
